A study of Mus musculus with 8 samples.

Results

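The tetraspanin family was followed through 4 populations of mouse mammary basal cells that had been sorted on a member of it, Tspan8. The members were the 31 mouse genes of the family, taken by Entrez identifier from the 27164 genes in the count tables, and all 31 were found there. The cells came from 10-week-old female C57BL/6 mice carrying Lgr5-GFP-IRES-CreERT2, without treatment. This allele is present in all 4 groups, the negative ones included, and places green fluorescent protein under the control of the Lgr5 locus, so that "Lgr5" in a group name is the sort label. T8 stands for Tspan8, and the cells positive for both were named Lgr5+T8hi, those negative for both Lgr5-T8-, and those with 1 marker Lgr5-T8hi or Lgr5+T8-. Each group had 2 RNA-seq libraries, 1 from each of 2 batches. Whether separate or pooled mice were used for the libraries is not in the labels, so the p-values measure the spread between these libraries, which may be technical.

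Tetraspanins are small membrane proteins with 4 transmembrane helices, a small and a large extracellular loop, and cysteines that carry palmitate. They bind other membrane proteins, such as integrins, immunoglobulin-like receptors and proteases, gather them into membrane domains, and several are enriched in extracellular vesicles. In the mammary gland, basal cells form the outer, contractile layer of the ducts and rest on the basement membrane through integrins that Cd151 and other tetraspanins bind.

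Tspan8 and Lgr5, the 2 sort genes, are adjacent protein-coding genes in RefSeq (GRCm38.p6). Lgr5 lies at chr10:115450314-115587780 and Tspan8 at chr10:115816817-115849893, 229.0 kb apart with 0 protein-coding genes between them. The 250 bases before a RefSeq transcript start, as listed in its promoter table, are shown for Tspan8, the sort marker, and for Tspan17 and Tspan5, a pair of related members that differed in opposite directions between Lgr5+ and Lgr5- cells. The sequences are RefSeq's for GRCm38.p6, all on the plus strand, at chr10:115817034-115817283, chr13:54789155-54789404 and chr3:138741958-138742207, written 5′ to 3′ with matches to the motif GGGCGG on the strand shown or its reverse complement in capitals.
Tspan8: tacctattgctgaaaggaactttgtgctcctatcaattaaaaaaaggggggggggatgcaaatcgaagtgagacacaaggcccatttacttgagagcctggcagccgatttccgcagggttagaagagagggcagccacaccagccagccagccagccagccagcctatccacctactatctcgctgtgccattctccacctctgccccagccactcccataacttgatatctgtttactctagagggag
Tspan17: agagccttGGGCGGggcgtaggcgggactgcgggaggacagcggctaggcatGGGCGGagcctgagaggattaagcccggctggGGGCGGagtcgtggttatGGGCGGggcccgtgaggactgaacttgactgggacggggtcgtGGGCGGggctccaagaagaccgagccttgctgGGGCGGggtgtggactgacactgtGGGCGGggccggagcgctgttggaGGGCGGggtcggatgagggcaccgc
Tspan5: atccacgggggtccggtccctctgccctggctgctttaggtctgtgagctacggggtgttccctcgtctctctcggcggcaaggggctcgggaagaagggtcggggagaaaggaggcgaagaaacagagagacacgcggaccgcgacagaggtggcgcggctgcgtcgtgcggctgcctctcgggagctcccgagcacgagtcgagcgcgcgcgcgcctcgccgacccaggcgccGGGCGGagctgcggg
The Tspan8 window was 52.4% G+C, equal to the median of 32851 promoters in the table, and held 4 CpG sites against a median of 6. The Tspan17 and Tspan5 windows were both 70.8% G+C, with 22 and 33 CpG sites. The motif GGGCGG, known as the GC box, occurred 8 times before Tspan17, 1 time before Tspan5 and 0 times before Tspan8. The TATA box (TATAAA), the TCF/LEF motif (CTTTGA), the ETS motif (CCGGAA) and the CCAAT box (CCAAT) had no match on either strand in the 3 windows. The 29 members with an entry had 39 promoters, of which 17 held a GC box and 1 a TATA box, whereas 32.7% and 12.4% of all promoters in the table held them. In each of the 3 genes this start lies downstream of the 5′ end of the whole gene span, so the windows fall within the spans given here. A match describes letters only.

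The libraries held 24571300 to 38384875 counts. A floor of 3 counts corresponded to 0.0799 to 0.120 CPM (counts per 1000000 counts), for counting error only. The labelled cell type was matched by its markers: 13 basal genes such as Krt5 and Krt14 summed to 18637 to 28446 CPM per library, and 21 luminal genes to 1192 to 2701 CPM. All 13 basal and 21 luminal genes had counts in every library. Lgr5 transcript was found under every gate, at 174 and 193 CPM in Lgr5+T8hi, 185 and 212 CPM in Lgr5+T8-, 119 and 129 CPM in Lgr5-T8hi, and 58.4 and 50.5 CPM in Lgr5-T8-. Genes of other cell types moved with the gates. Of the listed markers that could be tested, 17 of 21 luminal, 9 of 14 leukocyte, 8 of 15 endothelial, 12 of 14 fibroblast, 5 of 8 pericyte, 3 of 8 Schwann cell and 2 of 5 adipocyte genes were higher in T8hi cells, and 0 of 13 basal genes were higher with 9 lower. In the Lgr5 comparison 6, 1, 0, 7, 1, 0 and 0 genes of those other cell types, in the same order, were higher in Lgr5+ cells, and 4, 0, 0, 2, 2, 3 and 0 were lower. Over all genes tested, 9.13% were higher and 5.52% lower in T8hi cells, and 4.23% higher and 4.86% lower in Lgr5+ cells.

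Per unit of transcript length, the family was led by 5 broadly expressed members when averaged over all 8 libraries, a mean that pools gates in which Tspan8 differs widely. Levels are given in RPKM (reads per kilobase of the deposited gene length and 1000000 counts), which allows genes to be set side by side. Cd9, a partner of integrins and of the immunoglobulin-like EWI proteins, was highest, with a mean of 739 RPKM and a range over the 8 libraries of 617 to 876. Next were Cd63, a protein of late endosomes and vesicles (mean 203, range 158 to 256 RPKM), and Cd151, which binds laminin-binding integrins (mean 124, range 100.04 to 140 RPKM). Cd81, a widely expressed partner of EWI proteins, followed (mean 110.3, range 99.998 to 121 RPKM), and then Tspan3 (mean 89.4, range 76.9 to 98.6 RPKM). The ranges of Cd151 and Cd81 overlapped, so their order is not separated beyond the spread, and that of Tspan3 ended just below Cd81, whereas Cd9 stood above Cd63 in every library. These 5 genes made up 73.8 to 85.3% of the RPKM summed over the family.

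**Figure D1:**
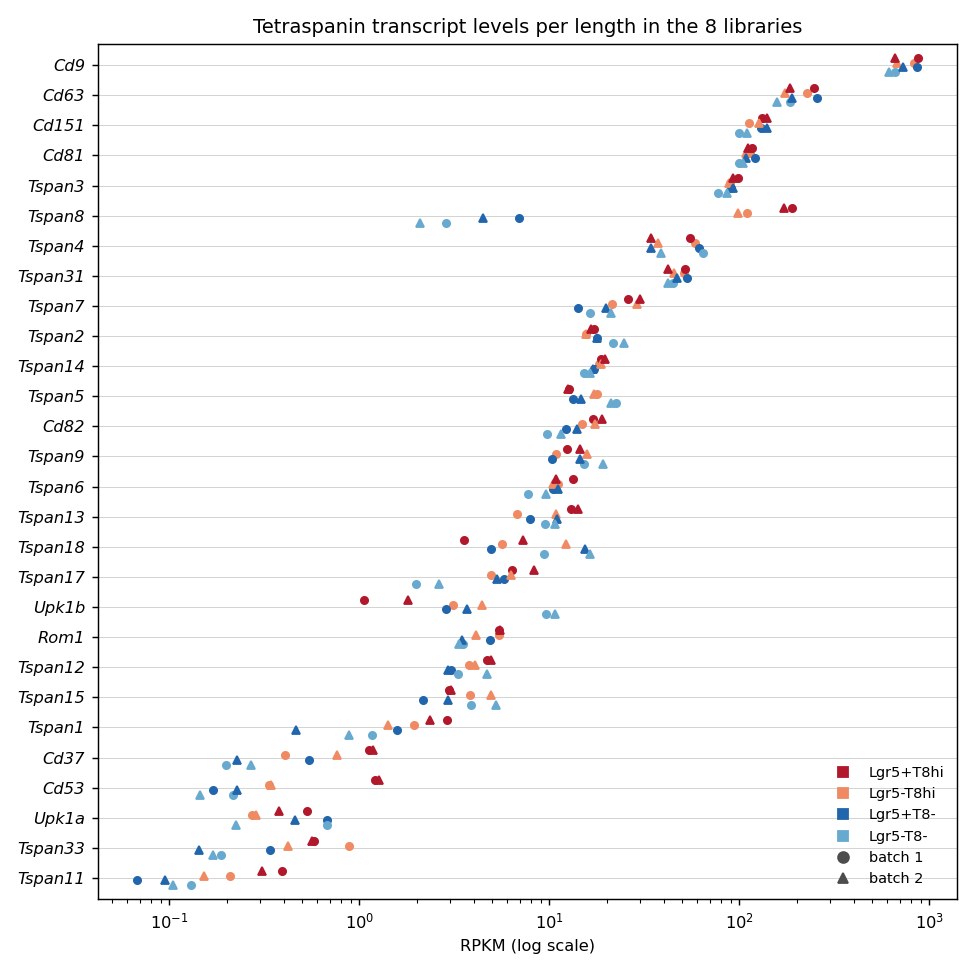
RPKM of the 28 tested family members on a log axis, with 1 point per library, coloured by population and shaped by batch. Cd9 sits highest, at 617 to 876 RPKM, and Tspan8 has the widest spread, from 2.08 to 190 RPKM.

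Below them, Tspan4 and Tspan31 had means of 47.9 and 47.1 RPKM, and the members from Tspan7 to Tspan13 in rank had means of 22.2 to 10.5 RPKM. Tspan18, Tspan17, Upk1b, Rom1, Tspan12, Tspan15 and Tspan1 had means of 9.33 to 1.58 RPKM, and Cd37, Cd53, Upk1a, Tspan33 and Tspan11 of 0.588 to 0.182 RPKM. Tspan32, a leukocyte member, had 28 counts over 6 libraries, Prph2, a photoreceptor disc protein, 6 counts over 4, and Tspan10 2 counts over 2, and these 3 were too low to test. The sum over the family ran from 1337 RPKM in a Lgr5-T8- library to 1928 RPKM in a Lgr5+T8hi library.

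Tspan8, the marker that defined the gates, followed its label at the transcript level. Its levels were 289 and 261 CPM in Lgr5+T8hi (batch 1, then batch 2, as in all pairs of values), 167 and 150.2 CPM in Lgr5-T8hi, 10.6 and 6.82 CPM in Lgr5+T8-, and 4.37 and 3.16 CPM in Lgr5-T8-. The 4 populations did not overlap, and within each Tspan8 gate the Lgr5+ libraries were the higher ones. In RPKM, the range from 98.7 to 190 in T8hi cells placed Tspan8 in rank 3 of the family in both Lgr5+T8hi libraries and in rank 5 in both Lgr5-T8hi libraries. In T8- cells it was at 2.08 to 6.95 RPKM, in ranks 16 to 22. Since the sort used its protein, its differences are given without a test. They were 5.20 ± 0.10 on the log2 scale (± SE) between T8hi and T8- cells, and 1.00 ± 0.10 between Lgr5+ and Lgr5- cells, with 0.79 ± 0.11 within T8hi and 1.20 ± 0.15 within T8- cells.

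The remaining 30 members, of which 27 could be tested, were compared between T8hi and T8- cells as the mean of the Lgr5+ and Lgr5- populations of each kind, with edgeR's quasi-likelihood test and batch in the model. A gene was called at an adjusted p under 0.05 over all 16526 genes tested. In these bulk samples, fewer cells of a type and less RNA per cell cannot be told apart. Of the members, 9 rose and 4 fell, which is 48.1% of the 27, whereas 14.6% of all genes tested were called (9.13% higher, 5.52% lower). The median log2 difference was 0.11 over the 27 members and -0.02 over all genes. Leaving out each library in turn, 9 of the 13 stayed called every time: Cd53, Cd82, Tspan1, Tspan2, Tspan7, Tspan11, Tspan17, Tspan33 and Upk1b. The test without the batch term called 5 members, Cd53, Cd82, Tspan11, Tspan17 and Upk1b, all among the 13. Under a stricter filter (1 CPM or more in 4 libraries) Cd37, Cd53, Tspan11 and Tspan33, all called higher, were too low to be tested. In 7 members the 4 T8hi libraries did not overlap the 4 T8- libraries, against 6.74% of all genes tested (4.08% higher, 2.66% lower). The 6 higher ones were Tspan7, Tspan14, Cd82, Cd53, Tspan33 and Tspan11, and the lower one was Tspan2.

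The members that rose most clearly at a moderate level were Tspan7 and Cd82. Tspan7 (chrX:10485116-10596604), best known in neurons, where it acts at synapses, was at 45.9 and 53.2 CPM in Lgr5+T8hi, 37.8 and 51.0 CPM in Lgr5-T8hi, 25.1 and 35.2 CPM in Lgr5+T8-, and 29.1 and 37.3 CPM in Lgr5-T8-. Every T8hi library was above every T8- library, though by a small margin between 37.8 and 37.3 CPM, and batch 2 was the higher in each population. The difference was 0.57 ± 0.07 on the log2 scale (edgeR adjusted p = 1.60e-04). Within Lgr5+ cells it was 0.73 ± 0.10 (edgeR adjusted p = 5.45e-04). Within Lgr5- cells it was 0.42 ± 0.10 (edgeR adjusted p = 0.0213), a call lost without either Lgr5-T8hi library (edgeR adjusted p = 0.109 and 0.273).

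Cd82 (chr2:93419102-93462950), a partner of integrins and growth factor receptors known as a suppressor of metastasis, was at 31.6 and 35.0 CPM in Lgr5+T8hi and 27.5 and 32.0 CPM in Lgr5-T8hi. It was at 22.7 and 25.8 CPM in Lgr5+T8-, and 18.0 and 21.2 CPM in Lgr5-T8-. The populations ran in the same order as for Tspan8, and the T8hi libraries lay wholly above the T8- ones. The difference was 0.53 ± 0.07 (edgeR adjusted p = 2.40e-04). It was 0.46 ± 0.09 within Lgr5+ cells (edgeR adjusted p = 0.00895) and 0.60 ± 0.10 within Lgr5- cells (edgeR adjusted p = 0.00195). The first of these calls was lost without Lgr5+T8hi library 1 or 2 or Lgr5+T8- library 2, with edgeR adjusted p from 0.0710 to 0.0824.

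Cd53 and Cd37, members best known from leukocytes, were low and rose in T8hi cells. Cd53, a leukocyte surface tetraspanin, was at 3.37 and 3.56 CPM in Lgr5+T8hi, 0.934 and 0.959 CPM in Lgr5-T8hi, 0.472 and 0.638 CPM in Lgr5+T8-, and 0.606 and 0.404 CPM in Lgr5-T8-. Both Lgr5+T8hi libraries stood apart, and the other T8hi libraries also lay above all T8- ones. The Tspan8 difference was 1.76 ± 0.23 (edgeR adjusted p = 3.25e-04), made up of 2.65 ± 0.31 within Lgr5+ cells (edgeR adjusted p = 2.21e-04) and 0.88 ± 0.35 within Lgr5- cells (edgeR adjusted p = 0.181). Cd37, another leukocyte tetraspanin, ranged from 0.494 to 1.44 CPM in T8hi and from 0.243 to 0.661 CPM in T8- cells, with a difference of 1.42 ± 0.34 (edgeR adjusted p = 0.0154). The groups overlapped, and the Cd37 call was lost without either Lgr5+T8hi library, Lgr5-T8hi library 2 or Lgr5+T8- library 2 (edgeR adjusted p from 0.0567 to 0.0906). Summed markers of leukocytes, among them Ptprc, the common leukocyte antigen, were also highest in Lgr5+T8hi, at 112 to 175 CPM. They overlapped among the other populations, at 73.9 to 92.0 CPM in Lgr5-T8hi, 52.4 to 83.2 CPM in Lgr5+T8- and 60.5 to 104 CPM in Lgr5-T8-. Within Lgr5- cells, 0 of the 14 tested leukocyte markers were called for the Tspan8 gate, against 7.06% of all genes. Ptprc alone was at 5.91 and 8.51 CPM in Lgr5+T8hi and at 1.04 to 2.42 CPM elsewhere, and at most 1 of the 16 listed genes was at 0 in a library. Their part in the result was not tested. Without both Lgr5+T8hi libraries, when Lgr5-T8hi was set against the mean of the T8- populations, Cd53 differed by 0.83 ± 0.34 (edgeR adjusted p = 0.278).

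Tspan1 and Tspan13, members known from epithelia, were also higher in the T8hi cells of the Lgr5+ gate. Tspan1 was at 5.71 and 4.61 CPM in Lgr5+T8hi, 3.82 and 2.77 CPM in Lgr5-T8hi, 3.12 and 0.917 CPM in Lgr5+T8-, and 2.30 and 1.73 CPM in Lgr5-T8-. The highest values were those of Lgr5+T8hi, while 1 Lgr5+T8- library overlapped Lgr5-T8hi. Its Tspan8 difference was 1.06 ± 0.21 (edgeR adjusted p = 0.00643), and 1.40 ± 0.30 within Lgr5+ cells (edgeR adjusted p = 0.0132). The latter was lost without any of 3 of those 4 libraries, all but Lgr5+T8- library 1 (edgeR adjusted p from 0.0570 to 0.146). Without that library the difference was 2.33, and without Lgr5+T8- library 2 it was 0.91.

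Tspan13 was at 25.0 and 27.3 CPM in Lgr5+T8hi, 12.9 and 20.8 CPM in Lgr5-T8hi, 15.2 and 21.1 CPM in Lgr5+T8-, and 18.3 and 20.6 CPM in Lgr5-T8-. Both Lgr5+T8hi libraries were above the other 6, which overlapped each other. It was higher by 0.55 ± 0.14 than in Lgr5+T8- (edgeR adjusted p = 0.0251) and by 0.66 ± 0.14 than in Lgr5-T8hi (edgeR adjusted p = 0.0226). The first call was lost without any of the 4 Lgr5+ libraries (edgeR adjusted p of up to 0.265), and the second without either Lgr5+T8hi library or Lgr5-T8hi library 1 (edgeR adjusted p of up to 0.428). The 21 luminal markers summed to 2032 to 2701 CPM in Lgr5+T8hi, 1789 to 2466 CPM in Lgr5-T8hi, 1457 to 2257 CPM in Lgr5+T8- and 1192 to 1574 CPM in Lgr5-T8-, and their part in these differences was not tested.

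Among the less studied members, Tspan11 was at 0.639 to 1.64 CPM in T8hi and 0.283 to 0.546 CPM in T8- cells, without overlap, a difference of 1.36 ± 0.28 (edgeR adjusted p = 0.00530). It was 2.11 ± 0.39 within Lgr5+ cells (edgeR adjusted p = 0.00453), a call lost without library 1 of Lgr5+T8- or of Lgr5+T8hi. Within Lgr5- cells it was 0.61 ± 0.38 (edgeR adjusted p = 0.443). Without both Lgr5+T8hi libraries the Tspan11 difference was 0.89 ± 0.37 (edgeR adjusted p = 0.293). Tspan12, a co-receptor for Norrin with the Wnt receptor Fzd4, was at 11.7 and 12.3 CPM in Lgr5+T8hi, 9.39 and 10.1 CPM in Lgr5-T8hi, 7.53 and 7.30 CPM in Lgr5+T8-, and 8.25 and 11.6 CPM in Lgr5-T8-. Lgr5+T8hi was highest and Lgr5+T8- lowest, with the Lgr5- libraries between them. It was called within Lgr5+ cells, at 0.69 ± 0.15 (edgeR adjusted p = 0.0141), but not without either Lgr5+T8hi library or Lgr5+T8- library 2 (edgeR adjusted p from 0.0853 to 0.169). Over both Lgr5 gates the Tspan12 difference was 0.34 ± 0.11 (edgeR adjusted p = 0.0560). Rom1, a photoreceptor disc protein, was at 8.33 and 8.40 CPM in Lgr5+T8hi, 8.32 and 6.29 CPM in Lgr5-T8hi, 7.40 and 5.30 CPM in Lgr5+T8-, and 5.37 and 5.11 CPM in Lgr5-T8-. The gates overlapped for Rom1. Its difference of 0.44 ± 0.12 (edgeR adjusted p = 0.0289) was lost without Lgr5-T8hi library 1, Lgr5-T8- library 1, Lgr5+T8- library 2 or Lgr5+T8hi library 2 (edgeR adjusted p from 0.0718 to 0.159), and with DESeq2 (DESeq2 adjusted p = 0.0529).

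Upk1b had the lowest Tspan8 difference of the tested members. It encodes a uroplakin, a tetraspanin of the plaques that cover the bladder surface, and lies at chr16:38773182-38800203. It was at 17.1 and 18.9 CPM in Lgr5-T8-, 5.07 and 6.50 CPM in Lgr5+T8-, 5.52 and 7.78 CPM in Lgr5-T8hi, and 1.87 and 3.18 CPM in Lgr5+T8hi. The double-negative cells were the highest, the double-positive cells the lowest, and the populations with 1 marker overlapped each other between them. The Tspan8 difference was -1.34 ± 0.12 (edgeR adjusted p = 2.02e-05) and the Lgr5 difference -1.53 ± 0.12 (edgeR adjusted p = 1.37e-05). Each held with any 1 library left out and without the batch term. Upk1a, its plaque relative, was between 0.294 and 0.882 CPM and was not called in any comparison.

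**Figure D2:**
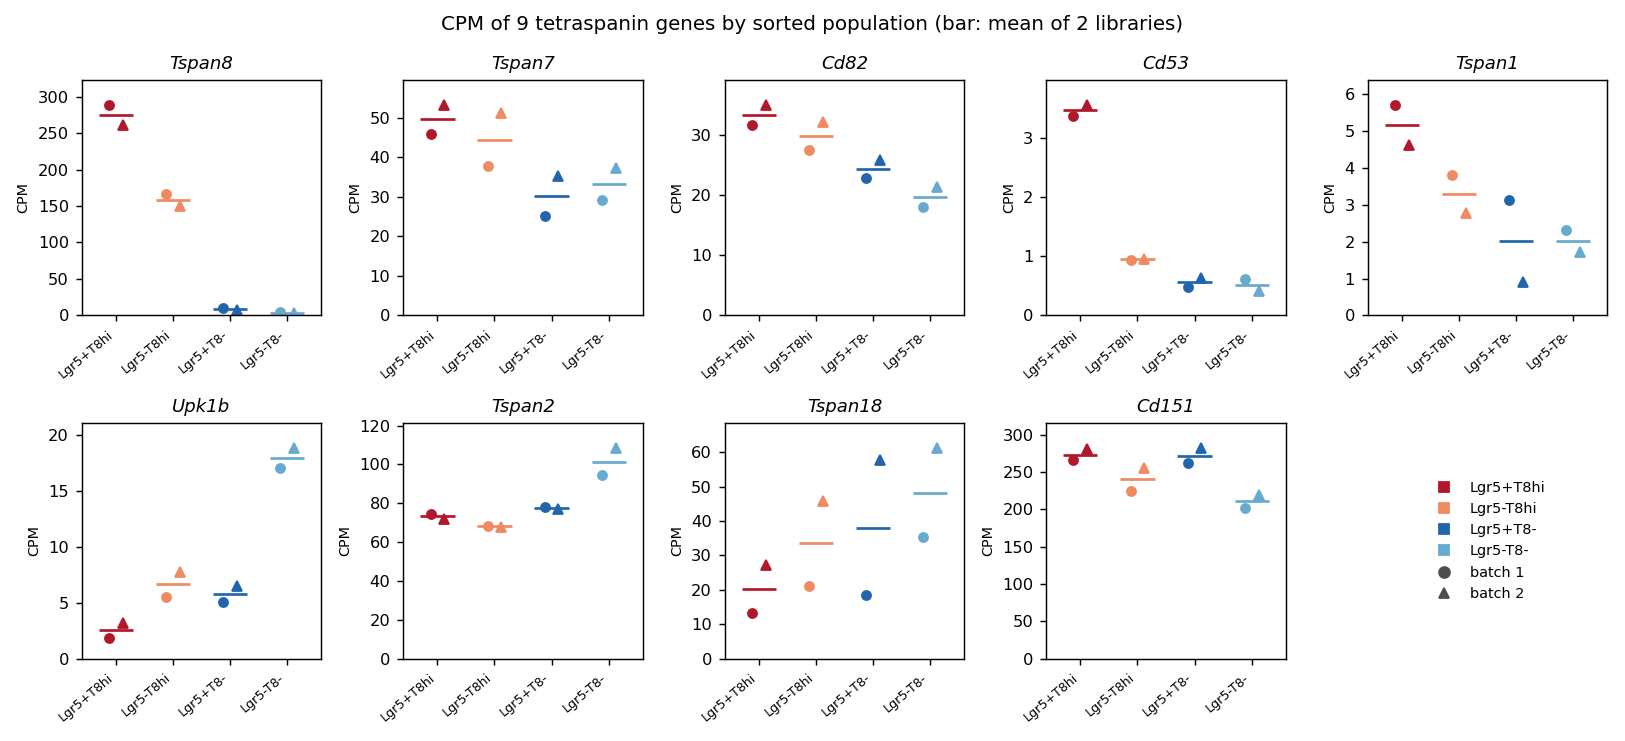
CPM of Tspan8 and 8 other members, each panel with its own axis from 0. Points are libraries, shaped by batch, and bars are the mean of the 2 libraries of a population; Upk1b is highest in Lgr5-T8- (17.1 and 18.9 CPM) and Cd53 in Lgr5+T8hi (3.37 and 3.56 CPM).

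Tspan2, Tspan18 and Tspan5 also fell in T8hi cells. Tspan2, a member known from oligodendrocytes and smooth muscle, was at 74.5 and 72.1 CPM in Lgr5+T8hi, 68.2 and 67.9 CPM in Lgr5-T8hi, 78.0 and 77.3 CPM in Lgr5+T8-, and 94.5 and 108 CPM in Lgr5-T8-. All T8hi libraries lay below all T8- libraries, with a difference of -0.33 ± 0.07 (edgeR adjusted p = 0.00491). Within Lgr5- cells the Tspan2 difference was -0.57 ± 0.09 (edgeR adjusted p = 0.00225, and 0.0544 without Lgr5-T8hi library 2), and within Lgr5+ cells it was -0.08 ± 0.09 (edgeR adjusted p = 0.680). A long noncoding gene, Tspan2os, overlaps Tspan2 by 648 bases, and the sources used here give no strand setting, so reads of the 2 genes cannot be told apart there.

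Tspan18, a member known from endothelium, differed more between batches than between gates. It was at 13.3 and 27.1 CPM in Lgr5+T8hi, 21.1 and 45.9 CPM in Lgr5-T8hi, 18.5 and 57.7 CPM in Lgr5+T8-, and 35.3 and 61.2 CPM in Lgr5-T8-. The gates overlapped over all libraries, but within each batch Lgr5+T8hi was lowest and Lgr5-T8- highest. With batch in the model, the Tspan8 difference was -0.70 ± 0.12 (edgeR adjusted p = 0.00573, and 0.0516 without Lgr5+T8hi library 2). The Lgr5 difference was -0.60 ± 0.12 (edgeR adjusted p = 0.0186, and 0.0797 and 0.102 without either Lgr5+T8hi library). The 15 endothelial markers summed highest where Tspan18 was lowest, at 1123 to 1189 CPM in Lgr5+T8hi, 350.2 to 668 CPM in Lgr5-T8hi, 234 to 334 CPM in Lgr5+T8- and 390 to 399 CPM in Lgr5-T8-, and their part in these differences was not tested.

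Across the Lgr5 gate, 4 of the 27 tested members rose and 4 fell in Lgr5+ cells. That is 29.6% of the members, whereas 9.09% of all genes tested were called (4.23% higher, 4.86% lower). The median log2 difference was 0.14 for the members and 0.01 for all genes. Tspan5, Tspan15, Tspan17 and Upk1b stayed called with any 1 library left out, and the test without the batch term called Tspan5 and Upk1b. The 4 libraries of each gate did not overlap for 4 members, against 4.73% of all genes tested. These were Cd151 and Tspan3 (higher, against 2.52% of all genes) and Tspan5 and Tspan15 (lower, against 2.21%).

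Of the broadly expressed members, Cd151 was at 266 and 281 CPM in Lgr5+T8hi, 262 and 282 CPM in Lgr5+T8-, 225 and 256 CPM in Lgr5-T8hi, and 201 and 219.9 CPM in Lgr5-T8-. The Lgr5+ libraries lay above all Lgr5- ones, a difference of 0.28 ± 0.06 (edgeR adjusted p = 0.0164). The Cd151 call was lost without Lgr5+T8- library 1 or any of the 4 T8hi libraries (edgeR adjusted p from 0.0560 to 0.197). Cd53 and Cd82 were higher in Lgr5+ cells by 0.98 ± 0.24 and 0.24 ± 0.07 (edgeR adjusted p = 0.0238 and 0.0477). Those calls were lost without 6 of the 8 libraries for Cd53, all but those of Lgr5-T8- (edgeR adjusted p from 0.0558 to 0.104), and without 7 for Cd82, all but Lgr5-T8- library 2 (edgeR adjusted p from 0.0834 to 0.296). With DESeq2 the Cd53 call was lost (DESeq2 adjusted p = 0.0611), as was that of Cd82 (DESeq2 adjusted p = 0.139, and edgeR adjusted p = 0.0511 with RLE normalization). Within T8- cells, which leave out the Lgr5+T8hi libraries, the Cd53 difference was 0.10 ± 0.39 (edgeR adjusted p = 0.915).

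The other 4 of the 5 most abundant members were not called for either gate. Cd9 was at 1044 and 787 CPM in Lgr5+T8hi, 986 and 805 CPM in Lgr5-T8hi, 1029 and 871 CPM in Lgr5+T8-, and 788 and 735 CPM in Lgr5-T8-. Batch 1 was higher in each population for Cd9, and for Cd63, which was at 257 and 191 CPM, 235 and 181 CPM, 266 and 196 CPM, and 192 and 164 CPM in the same order. Cd81 was at 177 and 169 CPM, 172 and 164 CPM, 183 and 165 CPM, and 152 and 159 CPM, and Tspan3 at 171 and 161 CPM, 154 and 153 CPM, 156 and 159.8 CPM, and 133 and 148 CPM. For all 4 genes the lowest library was a Lgr5-T8- one. Their Tspan8 differences were between 0.05 and 0.10, and their Lgr5 differences between 0.10 and 0.23, with none called. The largest, the Lgr5 difference of Cd63, was 0.23 ± 0.07 and just missed the threshold (edgeR adjusted p = 0.0511). Cd63 was called within T8- cells, higher by 0.36 ± 0.10 in Lgr5+ cells (edgeR adjusted p = 0.0343), a call lost without any library but Lgr5-T8- library 2 (edgeR adjusted p from 0.0559 to 0.259).

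The TspanC8 subgroup, named for 8 cysteines in its large loop, binds the protease ADAM10, brings it to the cell surface and steers which substrates it cuts. Its 6 members summed to 38.8 to 47.5 RPKM per library, with Tspan10 nearly absent. The make-up of this sum shifted with both gates. Tspan5 (chr3:138741848-138904433) was at 12.6 and 12.5 RPKM in Lgr5+T8hi, 17.7 and 17.1 RPKM in Lgr5-T8hi, 13.4 and 14.7 RPKM in Lgr5+T8-, and 22.4 and 21.1 RPKM in Lgr5-T8-. All Lgr5+ libraries lay below all Lgr5- libraries, a difference of -0.55 ± 0.07 (edgeR adjusted p = 2.26e-04). Tspan5 was 28.4 to 51.3% of the summed RPKM of the subgroup. Its Tspan8 difference was smaller, at -0.24 ± 0.06 (edgeR adjusted p = 0.0256), and was lost without Lgr5-T8- library 1, Lgr5+T8- library 2 or any of the 4 T8hi libraries (edgeR adjusted p from 0.0660 to 0.158).

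Tspan17 (chr13:54789102-54796775) went the other way. It was at 6.38 and 8.31 RPKM in Lgr5+T8hi, 4.94 and 6.25 RPKM in Lgr5-T8hi, 5.75 and 5.28 RPKM in Lgr5+T8-, and 1.99 and 2.62 RPKM in Lgr5-T8-. The double-negative cells stood apart at the low end, the double-positive cells were highest, and the populations with 1 marker overlapped each other between them. The Tspan8 and Lgr5 differences of Tspan17 were both 0.84 ± 0.12 (edgeR adjusted p = 5.06e-04 and 7.80e-04). The Tspan8 difference was 1.28 ± 0.17 within Lgr5- cells (edgeR adjusted p = 6.70e-04) and 0.39 ± 0.16 within Lgr5+ cells (edgeR adjusted p = 0.179). The difference between these was -0.89 ± 0.24 (edgeR adjusted p = 0.0809), which missed the threshold.

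Tspan15, which is known to direct ADAM10 to N-cadherin, was at 2.96 and 3.04 RPKM in Lgr5+T8hi, 3.82 and 4.92 RPKM in Lgr5-T8hi, 2.15 and 2.91 RPKM in Lgr5+T8-, and 3.88 and 5.22 RPKM in Lgr5-T8-. All Lgr5+ libraries lay below all Lgr5- ones, a difference of -0.69 ± 0.09 (edgeR adjusted p = 6.45e-04). Its Tspan8 difference was 0.11 ± 0.09 and was not called. Tspan14 was at 18.6 and 19.5 RPKM in Lgr5+T8hi, 18.3 and 18.8 RPKM in Lgr5-T8hi, 17.2 and 17.0 RPKM in Lgr5+T8-, and 15.2 and 16.4 RPKM in Lgr5-T8-. The T8hi libraries were all above the T8- ones, but the Tspan14 difference of 0.19 ± 0.06 missed the threshold (edgeR adjusted p = 0.0570). Tspan33 was at 0.574 and 0.560 RPKM in Lgr5+T8hi, 0.883 and 0.421 RPKM in Lgr5-T8hi, 0.338 and 0.142 RPKM in Lgr5+T8-, and 0.186 and 0.169 RPKM in Lgr5-T8-. Tspan33 was thus higher in every T8hi library, by 1.54 ± 0.30 (edgeR adjusted p = 0.00400), on counts that reached 10 in 6 of the 8 libraries.

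**Figure D3:**
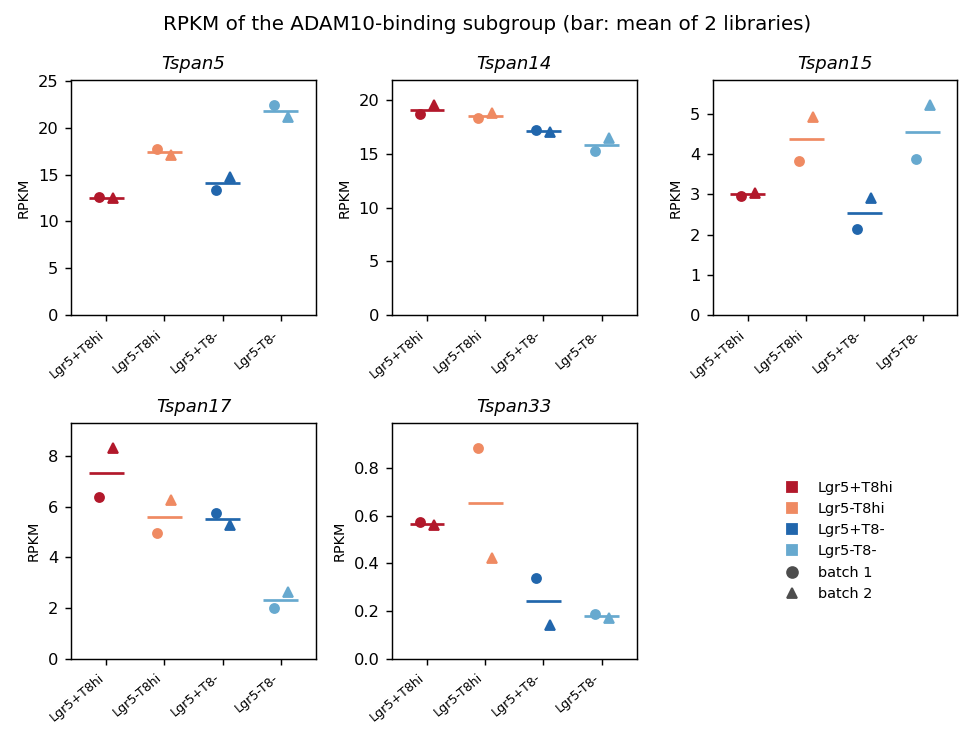
RPKM of the 5 tested TspanC8 members, each panel with its own axis from 0; points are libraries, shaped by batch, and bars the mean of the 2 libraries of a population. Tspan5 and Tspan15 are lower in Lgr5+ cells, and Tspan17 is lowest in Lgr5-T8-, at 1.99 and 2.62 RPKM.

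Adam10 itself, the protease these members bind, was at 78.7 to 108 CPM and was not called for the Tspan8 gate (-0.06 ± 0.06, edgeR adjusted p = 0.618) or the Lgr5 gate (-0.10 ± 0.06, edgeR adjusted p = 0.367). In a list of 15 ADAM proteases and proteins that they cut, 14 were tested. Of these, 4 rose and 1 fell in T8hi cells, where 9.13% of all genes tested rose and 5.52% fell. In Lgr5+ cells 2 fell, against 4.86% of all genes. Procr, the endothelial protein C receptor, rose by 0.86 ± 0.07 in T8hi cells (edgeR adjusted p = 1.48e-05), and Notch1, a receptor cut by ADAM10, by 0.62 ± 0.08 (edgeR adjusted p = 1.90e-04). Neither was called without the batch term (edgeR adjusted p = 0.537 and 0.0522). Procr was highest in Lgr5+T8hi, at 126 and 49.7 CPM, with batch 1 higher in every population. The endothelial sums given above were also highest there, and their part in the Procr difference was not tested. Notch3 rose by 1.06 ± 0.09 in T8hi cells and fell by 0.63 in Lgr5+ cells (SE 0.09, edgeR adjusted p = 3.84e-05 and 0.00178). Cdh2, which encodes N-cadherin, fell in both, by 0.49 in T8hi and 0.74 in Lgr5+ cells (SE 0.10 for each, edgeR adjusted p = 0.00502 and 5.34e-04). Notch3 is also in the pericyte list, which summed to 341 to 418 CPM in Lgr5+T8hi and 204 to 397 CPM elsewhere, and its part in this was not tested.

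Among 12 integrin genes, whose products are the laterally bound partners of Cd151, Cd9 and Cd82, 2 rose and 3 fell in T8hi cells, and 0 rose and 2 fell in Lgr5+ cells. The shares of all genes tested were 9.13% higher and 5.52% lower in T8hi cells, and 4.23% higher and 4.86% lower in Lgr5+ cells. Itga7, a laminin-binding chain, rose by 0.67 ± 0.09 (edgeR adjusted p = 3.69e-04), and Itga4, a chain best known from leukocytes, by 1.60 ± 0.27 (edgeR adjusted p = 0.00216). Itga4 was low, at 1.76 to 3.93 CPM in T8hi and 0.439 to 1.40 CPM in T8- cells. Itga7 was at 8.81 to 29.4 CPM. Itgb3 fell by 0.64 in T8hi and by 0.78 in Lgr5+ cells (SE 0.09 for each, edgeR adjusted p = 4.06e-04 and 1.52e-04). Itga6, at 414 to 798 CPM and also in the basal list, fell by 0.32 in T8hi and 0.37 in Lgr5+ cells (edgeR adjusted p = 0.0148 and 0.0112). Each of these 2 Itga6 calls was lost on leaving out any 1 of 4 libraries. The calls of Itga7, Itga4 and Itgb3 held with any 1 library left out. Without the batch term Itga4 stayed called (edgeR adjusted p = 0.0297). Itga7 (edgeR adjusted p = 0.243) and Itgb3 (edgeR adjusted p = 0.149 and 0.150 for the 2 gates) did not.

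Of 15 other surface partners, all tested, 6 rose and 1 fell in T8hi cells, against 9.13% and 5.52% of all genes tested. In Lgr5+ cells 5 rose and 1 fell, against 4.23% and 4.86%. Muc1, a luminal mucin, rose by 0.89 ± 0.08 and 0.62 ± 0.08 in the 2 comparisons (edgeR adjusted p = 1.54e-05 and 3.30e-04). Cldn7, a claudin that binds Epcam and Tspan8, rose by 1.75 ± 0.16 in T8hi cells (edgeR adjusted p = 1.84e-04), and Vcam1, an adhesion receptor, by 0.81 ± 0.10 (edgeR adjusted p = 3.25e-04). Muc1 and Cldn7 are also among the luminal markers whose sums are given above.

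The Norrin receptor complex, in which Tspan12 acts, had 4 other genes tested. Fzd4 rose in T8hi cells by 0.58 ± 0.10 (edgeR adjusted p = 0.00155). Ndp, which encodes Norrin, fell by 1.03 in Lgr5+ cells (SE 0.17, edgeR adjusted p = 0.00308) and by 0.76 in T8hi cells (SE 0.17, edgeR adjusted p = 0.0114), the latter lost without either Lgr5+T8hi library (edgeR adjusted p = 0.0695 and 0.0758). The co-receptors Lrp5 and Lrp6 were not called for either gate. Among 18 vesicle and endosome genes, 1 rose and 1 fell in T8hi cells, near the 9.13% higher and 5.52% lower of all genes tested. In Lgr5+ cells 3 of them rose, against 4.23% of all genes. Timp1, a protease inhibitor that binds Cd63, rose in T8hi cells by 0.80 ± 0.11 (edgeR adjusted p = 7.57e-04). Of 6 palmitoyl transferase and lipid kinase genes, Zdhhc2, an enzyme that adds palmitate to tetraspanins, rose in T8hi cells by 0.95 ± 0.17 (edgeR adjusted p = 0.00220), and no other gene of that list passed for either gate. Zdhhc2 was low, at 1.32 to 4.07 CPM. Of 4 further uroplakin genes, 2 were tested, and Upk3a rose in T8hi cells by 0.90 ± 0.27 (edgeR adjusted p = 0.0450). Upk3a was low, at 0.319 to 2.83 CPM, and the gates overlapped. Its call was lost without library 2 of Lgr5+T8-, Lgr5-T8- or Lgr5+T8hi or library 1 of Lgr5-T8hi or Lgr5-T8-. It was also lost with limma-voom (limma adjusted p = 0.0545) and with the stricter filter on low counts (edgeR adjusted p = 0.0531).

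The members called for both gates numbered 6 of 27, against 4.80% of all genes tested. Cd53, Cd82 and Tspan17 were higher, and Upk1b, Tspan5 and Tspan18 lower, in T8hi cells and in Lgr5+ cells. Both comparisons use the same 8 libraries, and the Lgr5 calls of Cd53, Cd82 and Tspan18 were lost under the omissions given above. No member was called in opposite directions by the 2 gates. Of the 27 members, 8 had population means in the order of Tspan8 itself, against 7.25% of all genes tested: Tspan1, Tspan6, Tspan14, Tspan17, Cd37, Cd53, Cd82 and Rom1. Tspan4 and Tspan18 had the reverse order, against 11.2% of all genes. The libraries are the same for all these genes, and neighbouring populations in that order often overlapped.

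**Figure D4:**
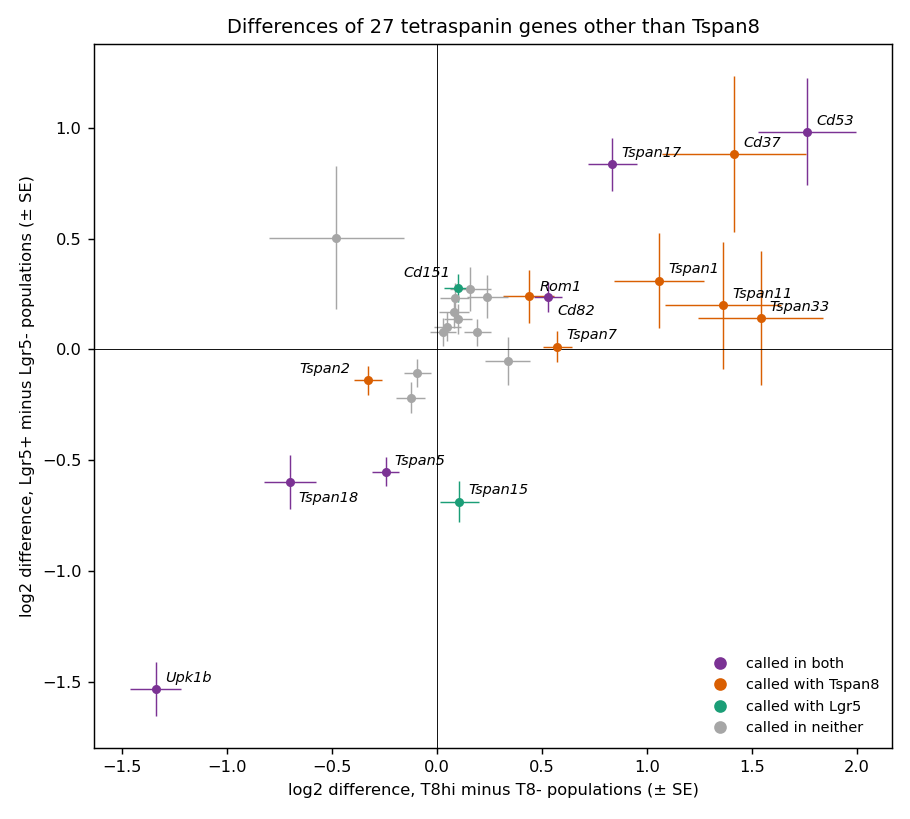
Log2 difference between T8hi and T8- cells (x axis) against that between Lgr5+ and Lgr5- cells (y axis) for the 27 tested members, with bars of 1 SE. Purple points are called in both, orange in the Tspan8 and green in the Lgr5 comparison, and grey in neither; Upk1b lies farthest to the lower left, at -1.34 and -1.53.

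With Lgr5 status held fixed, the Tspan8 gate gave 7 members higher and 2 lower within Lgr5+ cells, where 9.44% of all genes were called (7.27% higher, 2.17% lower). It gave 4 higher and 3 lower within Lgr5- cells, where 7.06% of all genes were called (3.70% higher, 3.36% lower). In Lgr5+ cells Cd53, Tspan7 and Upk1b, and in Lgr5- cells Cd82, Tspan17 and Upk1b, held with any 1 library left out. Upk1b fell by 1.22 and 1.45 (SE 0.19 and 0.16, edgeR adjusted p = 0.00123 and 1.57e-04). Leaving out Lgr5+T8hi library 1 or 2 or Lgr5+T8- library 2 reduced the first count to 3, 4 and 4. Leaving out either Lgr5-T8hi library reduced the second count to 4, and leaving out Lgr5-T8- library 2 raised it to 11.

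With Tspan8 status held fixed, the Lgr5 gate gave 2 members higher and 2 lower within T8hi cells, where 3.34% of all genes were called (2.29% higher, 1.05% lower). It gave 3 higher and 5 lower within T8- cells, where 8.86% of all genes were called (3.81% higher, 5.05% lower). Within T8hi cells these were Cd53 and Tspan13 (higher) and Upk1b and Tspan5 (lower), and none of them held through every omission of a library, with the count falling to 1, 0 and 1 without Lgr5-T8hi library 1, Lgr5+T8hi library 1 and Lgr5+T8hi library 2. Within T8- cells Tspan5, Tspan15, Tspan17 and Upk1b held through every omission, with differences of -0.63 ± 0.09, -0.85 ± 0.14, 1.28 ± 0.18 and -1.65 ± 0.16 (edgeR adjusted p = 0.00113, 0.00194, 7.28e-04 and 6.74e-05). The T8- count fell from 8 to 4 without Lgr5+T8- library 1 and to 5 without Lgr5-T8hi library 2.

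Among the 7 comparisons, Tspan9, a platelet and endothelial member, was called only between Lgr5-T8- and each population with 1 marker. None of the comparisons set Lgr5+T8hi directly against Lgr5-T8-, so that pair was not tested. Tspan9 was at 59.4 and 75.6 CPM in Lgr5-T8-, 42.7 and 61.7 CPM in Lgr5-T8hi, 40.8 and 57.0 CPM in Lgr5+T8-, and 48.9 and 56.9 CPM in Lgr5+T8hi. Lgr5-T8- was highest within each batch, and batch 2 was higher in every population. Its difference was -0.47 ± 0.10 for Lgr5+T8- (edgeR adjusted p = 0.00986, and 0.0963 without Lgr5+T8- library 1). It was -0.38 ± 0.10 for Lgr5-T8hi (edgeR adjusted p = 0.0340), lost without either Lgr5-T8hi library or Lgr5-T8- library 1 (edgeR adjusted p from 0.105 to 0.539).

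Whether the Tspan8 difference depended on Lgr5 status was tested as an interaction. In this test 0 of the 27 members passed with edgeR, against 2.55% of all genes (2.18% higher, 0.363% lower), although 8 had an unadjusted p under 0.05, against 11.8% of all genes. Of these 7 were positive and 1 negative, against 7.68% and 4.11% of all genes. DESeq2 called 1 member, Tspan13, at 0.81 (DESeq2 adjusted p = 0.0401), and limma-voom called 0. For Tspan13 the edgeR estimate was 0.78 ± 0.20 (edgeR adjusted p = 0.0637). It combines a Tspan8 difference of 0.55 ± 0.14 within Lgr5+ cells with one of -0.23 ± 0.14 within Lgr5- cells, the second not called. Taken within each batch, the Tspan13 interaction was 1.19 in batch 1 and 0.36 in batch 2.

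Over the 7 comparisons, 19 of the 27 tested members (70.4%) were called at least once, against 21.4% of all genes tested. The 8 never called were Cd9, Cd81, Tspan3, Tspan4, Tspan6, Tspan14, Tspan31 and Upk1a. Tspan6 ranged from 13.6 to 23.3 CPM, Tspan4 from 53.8 to 100.4 CPM and Tspan31 from 65.0 to 81.4 CPM. In RefSeq, Tspan4 overlaps Chid1 by 292 bases. Tspan31 overlaps the long noncoding gene A730063M14Rik by 492 bases and Cdk4 by only 2 bases. The counts of Tspan4 and Tspan31 may therefore not be theirs alone. Long noncoding genes also overlap the spans of Tspan18 (Gm32824, 28898 bases), Tspan9 (Gm52879, 11228 bases), Cd9 (Gm28809, 10378 bases), Tspan11 (Gm15870, 10165 bases) and Cd82 (Gm10804, 10132 bases), introns included. Shorter overlaps of this kind lie in Tspan12 (Gm30270, 1366 bases), Cd81 (R74862, 937 bases) and Cd151 (Gm10575, 410 bases). With the strand setting not given, the same uncertainty holds for all of these members. Family members also neighbour each other in the genome. Tspan18 and Cd82 lie 84.5 kb apart on chromosome 2 with 0 protein-coding genes between them, and they differed in opposite directions for both gates. Tspan11 and Tspan9, 8.4 kb apart on chromosome 6, had Tspan8 differences of 1.36 ± 0.28 and -0.12 ± 0.07, the second not called. Cd151 and Tspan4 lie 3.8 kb apart on chromosome 7 with Polr2l between them, and had Lgr5 differences of 0.28 ± 0.06 and -0.11 ± 0.06, the second not called.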

How the data were processed

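RNA from sorted basal cells was sequenced in 8 libraries, 2 for each of 4 populations. The values deposited by the authors are counts of reads for each gene, not normalized, beside a gene length. Tools listed in the submitters' processing notes, without their roles, are featureCounts, CASAVA 1.8.2, limma 3.24.14 and edgeR 3.10.2, and the genome is mm10 (GRCm38). The aligner and strand setting are not given in the sources used here. Entrez identifiers were looked up in RefSeq's GRCm38.p6 annotation for names and positions, and 25260 of 27164 matched.

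Counts of all genes were fitted with edgeR 4.0.16 (R 4.3.3, TMM, filterByExpr with a minimum count of 10, robust quasi-likelihood F-test, two-sided) in a model of population plus batch with 3 residual degrees of freedom. Of the genes, 16526 were tested and 10638 left out. P-values were adjusted by the Benjamini-Hochberg method within each comparison, over every gene tested. CPM used TMM-adjusted library sizes, and RPKM the deposited gene lengths. Log2 differences are edgeR's fitted values, with SEs derived from the F statistics. The labels' batch number is a shared batch and so pairs libraries across populations: deviations from population means correlated across genes at r = 0.516 to 0.665 over 6 pairs of populations. Replicates differed by more than sampling noise, with a chi-square per degree of freedom of 38.3 to 61.1.

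The members and gene lists were chosen with earlier results of these data known. Values in every library were given for members called in at least 1 comparison with a mean of at least 1 CPM, for the tested TspanC8 members, and for the 5 most abundant. From each partner list, examples were drawn from genes with the smallest adjusted p. Alternatives were no batch term, RLE normalization, no filter, limma-voom (limma 3.58.1), DESeq2 1.42.0, a stricter filter (1 CPM or more in 4 libraries) and leaving out each library, which leaves a population with 1 library assumed to vary like the others. A fit without both Lgr5+T8hi libraries was added after the data had been seen. The test was checked on simulated counts.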

Additional observations from a re-analysis of the deposited data

How the results depend on the processing

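With any 1 library left out, and under the other alternatives on all 8 libraries, no result tested changed direction with a call. Without the replicate block, members called fell from 13 to 5 for the Tspan8 gate, from 8 to 2 for the Lgr5 gate, from 9 to 2 for the Tspan8 gate within Lgr5+ cells, from 7 to 0 and from 4 to 0 for the Tspan8 gate within Lgr5- cells and the Lgr5 gate within T8hi cells, and from 8 to 2 for the Lgr5 gate within T8- cells. Over all genes, calls for the 2 gates fell from 2421 to 705 and from 1502 to 219. Calls of named partner genes were lost in that fit too. For the Tspan8 gate these were Itga6, Itga7, Itgb3, Vcam1, Procr, Notch1, Cdh2, Fzd4, Ndp, Timp1 and Upk3a. For the Lgr5 gate they were Itga6, Itgb3, Muc1, Notch3 and Ndp. The interaction count of 0 became 2 with no count filter, Tspan13 (0.77) and Tspan17 (-0.91), and 1 with DESeq2, Tspan13. With each library left out in turn, members called ran from 9 to 16 for the Tspan8 gate, 4 to 12 for the Lgr5 gate, 0 to 2 for the interaction, 3 to 10 and 4 to 11 for the Tspan8 gate within Lgr5+ and Lgr5- cells, and 0 to 6 and 4 to 10 for the Lgr5 gate within T8hi and T8- cells. Without both Lgr5+T8hi libraries, chosen after seeing the data, 6 members were called for the Tspan8 gate and 5 for the Lgr5 gate. These contrasts are not like for like: the Lgr5 one sets Lgr5+T8- against a mean that includes Lgr5-T8hi, so that it also holds part of the Tspan8 difference, and Tspan8 itself turned to -1.50 in it. Apart from how these last fits were built, the cause was not tested. Members below about 1 CPM (Cd37, Cd53 in T8- cells, Tspan11, Tspan33, Upk1a) rest on few counts. With the stricter filter Cd37, Cd53, Tspan11 and Tspan33 were not tested, so that alternative does not check their calls.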
